A study of Drosophila melanogaster with 6 samples.

Results

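The genes of the vacuolar H+ ATPase (V-ATPase) were followed in RNA from heads of adult Drosophila melanogaster. Members were all genes whose FlyBase symbol starts with Vha, whatever their level. The name table held 33 such symbols, and 28 of them had a row among the 15886 rows of the deposited table. Vha68-1, Vha26, Vha13, VhaAC39-1 and Vha44 had no row under their gene ID and are not analysed here. Subunits C, E and G of the complex are therefore not described, and subunits A and d only in part.

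All flies had TubGS, a GeneSwitch driver under the tubulin promoter, which is active broadly in the body when the drug RU486 is fed. The RNAi-GLAD group (TubGS>RNAi-GLAD) expressed an RNA interference construct named GLAD, and the control group (RNAi-Ctrl, genotype TubGS>RNAi-GFP) a construct against GFP, a protein flies do not have. Both groups received RU486 and were collected on day 7 of induction, with 3 libraries of 100 pooled heads or brains each (the labels use both words). Sex is not stated in the labels, and the gene that GLAD stands for is not named there, so the targeted gene could not be checked.

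The V-ATPase is a rotary pump that uses ATP to move protons out of the cytosol. Its V1 sector (subunits A to H) lies in the cytosol and hydrolyses ATP. Its V0 sector (a, c, c'', d and e) sits in the membrane and carries the protons. The pump acidifies lysosomes and endosomes, and on synaptic vesicles it builds the proton gradient that drives loading with neurotransmitter. Flies have several genes for many of the subunits: as background, a set is used in most tissues and a set of paralogues is known mainly from testis, gut or other restricted sites. From that knowledge 12 of the 28 members were classed as widely expressed and 16 as rare paralogues.

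Levels are FPKM, fragments scaled to gene length and library size. Library totals implied by the values were 22.1 to 29.5 M fragments, and for 2000 bp of exon a lone fragment meant 0.0169 to 0.0227 FPKM. The photoreceptor gene ninaE was the highest of its list in every library (25152 to 26327 FPKM), and the neuronal gene nSyb stood at 436 to 468 FPKM and the glial gene Gs2 at 689 to 779 FPKM. Each library thus held RNA of eye, neurons and glia. The libraries labelled RNAi-Ctrl 3 and RNAi-GLAD 3 went against their labels. The noncoding RNA lncRNA:CR40469 had 1935, 2198 and 5.86 FPKM in the controls against 4.20, 4.77 and 1718 under RNAi-GLAD, where values in each group follow the replicate numbers 1, 2 and 3, as they do throughout. Group comparisons are therefore given with all 6 libraries as labelled and again with the 4 libraries numbered 1 and 2. Those 4 were chosen from expression values of these same libraries. Every p-value and count of calls among them is therefore not independent of that choice and may overstate group differences.

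The members fell into levels that did not meet. The 12 widely expressed genes had means of 43.1 to 409 FPKM over the 6 libraries. Of the 16 rare paralogues, 13 had means under 1 FPKM (0.0772 to 0.476). The other 3, Vha36-3, VhaM9.7-c and VhaAC45RP, had means of 20.8, 26.5 and 71.9 FPKM, which goes against their background class in these heads. The lowest value of the 15 abundant genes in any library was 14.4 times the highest value of the 13 low ones.

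**Figure D1:**
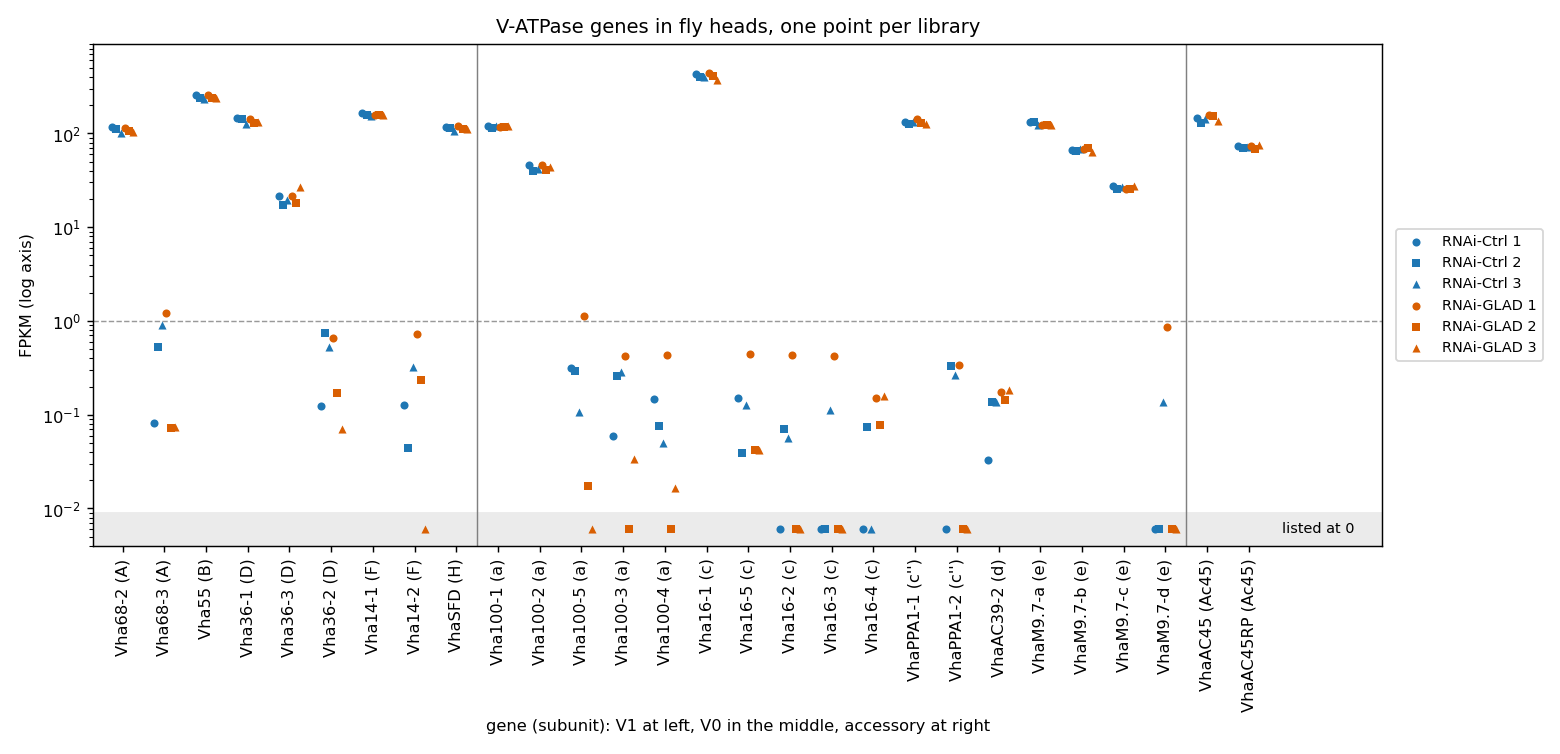
FPKM on a log axis of the 28 V-ATPase genes, with subunit in brackets; each point is 1 library, blue for RNAi-Ctrl and orange for RNAi-GLAD, and points in the grey strip are listed at 0. The 15 abundant genes lie between 17.3 and 437 FPKM with little spread, and the 13 low paralogues lie at or under 1.20 FPKM with wide spread.

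In the V1 sector the catalytic core was represented by Vha68-2 (subunit A, which binds and splits ATP) and Vha55 (subunit B, its partner in the ring). Vha55 (coordinates in BDGP6: 3R, 12623762 to 12627829) had 256, 236 and 233 FPKM in the controls against 259, 237 and 242 under RNAi-GLAD. Vha68-2 (2L, 12974322 to 12978607) had 118, 111 and 101 FPKM in the controls against 116, 106 and 104 under RNAi-GLAD. The groups overlapped for both genes, and Vha55 stood 2.23 times above Vha68-2 on the mean FPKM. A and B enter the complex in equal number, but the level of subunit A here lacks Vha68-1.

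Of the other V1 genes, Vha36-1, Vha14-1 and VhaSFD had means of 136, 158 and 114 FPKM, and Vha36-3 stood well under them at 20.8 FPKM. Vha36-1, the main gene of subunit D in the central shaft (2R, 15541435 to 15542498), had 147, 141 and 127 FPKM in the controls against 141, 129.5 and 131 under RNAi-GLAD. Its paralogue Vha36-3 (X, 2579091 to 2580560) had 21.3, 17.3 and 19.7 FPKM in the controls against 21.5, 18.2 and 26.8 under RNAi-GLAD. The library labelled RNAi-GLAD 3 was thus the highest for Vha36-3, while the other 5 lay between 17.3 and 21.5 FPKM. Vha14-1 (subunit F, also of the shaft; 2R, 15679426 to 15680084) had 164, 157 and 155 FPKM in the controls against 159, 159 and 156 under RNAi-GLAD. VhaSFD (subunit H, which governs activity and the joining of V1 to V0; 2L, 16722883 to 16727826) had 117, 115 and 107 FPKM in the controls against 119, 112 and 112 under RNAi-GLAD. Both groups overlapped for each of these 4 genes.

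In the V0 sector Vha16-1, the gene of the proteolipid subunit c that forms most of the proton-carrying ring, had the highest level of all members. At 2R, 6625242 to 6633090, it had 429.7, 404 and 400.2 FPKM in the controls against 437, 405 and 375 under RNAi-GLAD, and its mean was 1.68 times that of Vha55. VhaPPA1-1 (subunit c'', another proteolipid of the ring; 3R, 14902330 to 14904061) was lower, at 132, 126 and 133 FPKM in the controls against 142, 130.5 and 126 under RNAi-GLAD. Proteolipid c is present in many copies in each complex and c'' in few, and their FPKM stood in that order. That is a single pair of subunits, and whether FPKM follows copy number across the complex was not tested.

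Subunit a holds the channels through which protons enter and leave the ring, and its isoforms place the pump in particular membranes. Vha100-1 (3R, 29131193 to 29137980), the isoform known from fly neurons and their synapses, was at 119, 115 and 119 FPKM in the controls against 116, 116 and 121 under RNAi-GLAD. It varied least of all members, with a coefficient of variation of 1.98% over the 6 libraries. Vha100-2 (3R, 18390323 to 18399169), an isoform of wider use, was at 46.2, 40.0 and 42.1 FPKM in the controls against 45.6, 41.1 and 43.5 under RNAi-GLAD. Vha100-1 made up 72.9% ± 1.25 and Vha100-2 26.7% ± 0.937 of the summed FPKM of the 5 genes of subunit a (SD, n = 6 libraries). In bulk heads, a larger share of cells that use an isoform and more RNA per cell cannot be told apart.

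Subunit e, a small membrane protein of V0, was the most divided. VhaM9.7-a (3L, 4262705 to 4263464) had 131, 132 and 123 FPKM in the controls against 123, 125 and 122 under RNAi-GLAD. VhaM9.7-b (3L, 21539862 to 21541215) had 66.0, 65.4 and 68.3 FPKM in the controls against 68.8, 69.4 and 63.9 under RNAi-GLAD. VhaM9.7-c (3L, 4186018 to 4186865) had 27.8, 25.8 and 26.8 FPKM in the controls against 25.3, 25.7 and 27.8 under RNAi-GLAD. They held 57.3% ± 1.18, 30.5% ± 1.13 and 12.1% ± 0.568 of the summed FPKM of subunit e (SD, n = 6), and these shares kept the same order in all 6 libraries. VhaM9.7-c overlaps the span of Teh2 (mean 64.0 FPKM), a gene on the same strand, with no exon bases in common in the reference annotation.

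The accessory protein Ac45 assists assembly and targeting of the complex. VhaAC45 (2R, 9207561 to 9209774) had 145, 129 and 143 FPKM in the controls against 156, 152 and 137 under RNAi-GLAD. VhaAC45RP (3R, 30164692 to 30166419), a related gene, was at 73.0, 70.0 and 72.0 FPKM in the controls against 73.2, 68.3 and 74.9 under RNAi-GLAD, or 33.4% ± 1.71 (SD, n = 6) of the sum of both. The groups overlapped for each. The other accessory gene, ATP6AP2, carries no Vha symbol and was at 148 to 154 FPKM in the controls against 150.1 to 160.5 under RNAi-GLAD.

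**Figure D2:**
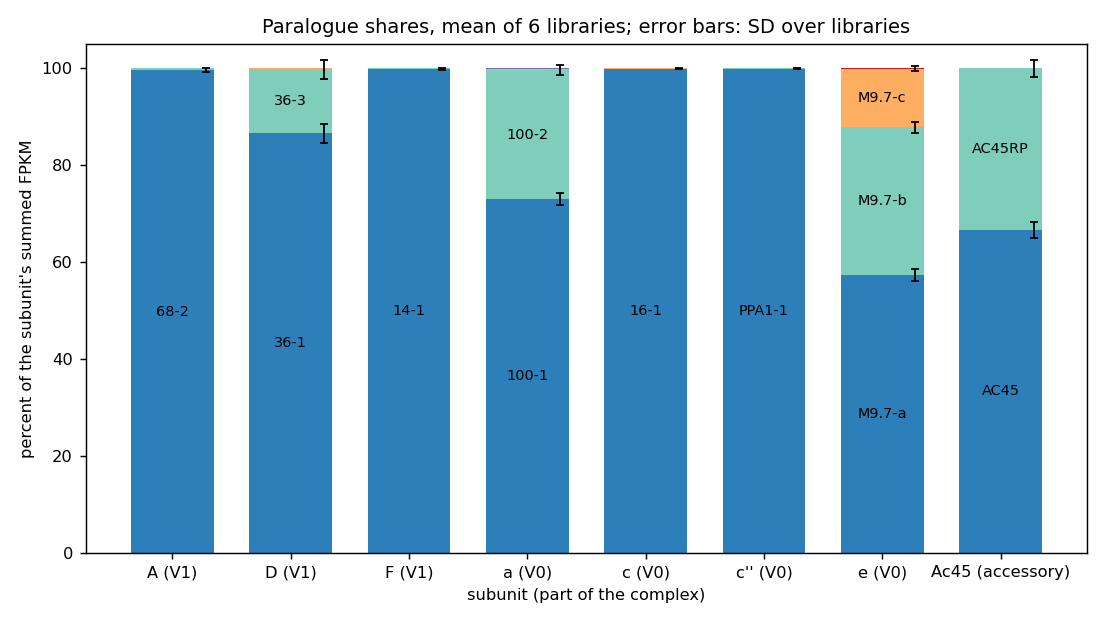
Percent of each subunit's summed FPKM held by each measured paralogue, as the mean of 6 libraries with SD over libraries as error bars, for the 8 subunits with at least 2 measured genes. A single gene holds nearly all of A, F, c and c'', while a, D, e and Ac45 are divided; subunit A lacks Vha68-1, which is not analysed here.

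By mean FPKM the abundant members ran in the order Vha16-1, Vha55, Vha14-1, VhaAC45, Vha36-1, VhaPPA1-1, VhaM9.7-a, Vha100-1, VhaSFD, Vha68-2, VhaAC45RP, VhaM9.7-b, Vha100-2, VhaM9.7-c and Vha36-3. Vha16-1 and Vha55 each stood above the next gene in every library. From Vha14-1 to VhaM9.7-a, and again from Vha100-1 to Vha68-2, the ranges of neighbours over the 6 libraries overlapped. The same held for VhaAC45RP with VhaM9.7-b and for VhaM9.7-c with Vha36-3. Overlapping ranges do not settle the order within a library: Vha14-1 stood above VhaAC45 in every library. Summed over paralogues, subunits a, F and D had means of 161, 159 and 157 FPKM with overlapping ranges.

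The 13 low paralogues formed the second class. They belong to subunits A (Vha68-3), D (Vha36-2), F (Vha14-2), a (Vha100-3, Vha100-4, Vha100-5), c (Vha16-2, Vha16-3, Vha16-4, Vha16-5), c'' (VhaPPA1-2), d (VhaAC39-2) and e (VhaM9.7-d). Of these, 9 were listed at 0 in at least 1 library, and Vha68-3 and Vha100-5 alone passed 1 FPKM anywhere, both in RNAi-GLAD 1. Their share of their subunit's FPKM was small: Vha68-3 held 0.432% ± 0.437 of the measured subunit A (SD, n = 6), Vha36-2 0.243% ± 0.186 of subunit D and VhaPPA1-2 0.115% ± 0.128 of subunit c''. The SD was of the size of the mean in each case.

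Several of these values rest on few fragments. For 6 of the 13, the values times exon length gave whole fragments within 0.1 in every library. By that count Vha36-2 had 4, 23 and 20 fragments in the controls against 20, 5 and 2 under RNAi-GLAD, and Vha100-4 had 10, 5 and 4 against 28, 0 and 1. Vha16-4 had 0, 1 and 0 fragments in the controls against 2, 1 and 2 under RNAi-GLAD. Its groups did not overlap in FPKM (0.0738 at most against 0.0783 at least), but a single fragment lay behind both of those values. VhaAC39-2 had 1, 4 and 5 against 5, 4 and 5, VhaM9.7-d 0, 0 and 2 against 10, 0 and 0, and Vha16-2 0, 1 and 1 against 6, 0 and 0. VhaAC39-2 also did not overlap in FPKM (0.137 at most in the controls against 0.144 at least under RNAi-GLAD). Its groups shared numbers of 4 and 5 fragments, however. For the rest of these 6 genes the groups overlapped, and for Vha36-2 and Vha100-4 the libraries of a single group differed by many fragments.

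The low paralogues differed between libraries of the same group. Their summed FPKM was 1.04, 2.60 and 3.02 in the controls against 7.41, 0.757 and 0.580 under RNAi-GLAD. All 13 were above 0 in RNAi-GLAD 1, against 7 in RNAi-GLAD 2 and 7 in RNAi-GLAD 3, and RNAi-GLAD 1 gave the highest value for 10 of them. The shares of all genes under 1 FPKM that did so were not counted, so these numbers do not set the paralogues apart. Vha68-3, an A subunit gene known from testis, was at 0.0820, 0.529 and 0.897 FPKM in the controls against 1.20, 0.0723 and 0.0739 under RNAi-GLAD. For Vha68-3, controls 2 and 3 and RNAi-GLAD 1 were thus high and the other 3 libraries low. VhaPPA1-2 was at 0.327, 0.265 and 0.335 FPKM in the former 3 and was listed at 0 in the latter 3. Vha100-3 was likewise higher in the former 3, at 0.262, 0.287 and 0.426 FPKM, and did not pass 0.0592 FPKM in the others. Not every low paralogue took this order. Vha14-2 was at 0.126, 0.0439 and 0.319 FPKM in the controls against 0.718, 0.233 and 0 under RNAi-GLAD. Vha16-5 was at 0.151, 0.0393 and 0.127 FPKM against 0.442, 0.0417 and 0.0426 FPKM. VhaAC39-2 and Vha16-4 were highest in RNAi-GLAD 3.

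Some marker lists of other organs moved with the summed low paralogues and some did not. The summed FPKM of 19 measured testis genes was 14.5, 58.5 and 85.9 in the controls against 119, 5.37 and 13.6 under RNAi-GLAD. Of the defining sperm genes, Mst87F was at 1.03, 10.6 and 13.2 FPKM against 19.3, 0.566 and 0.868 FPKM, and Mst84Dc and dj were listed at 0 in RNAi-GLAD 2. Not every gene of the list took that order: topi had 4.47, 4.62 and 0.60 FPKM against 0.872, 0.535 and 3.32 FPKM, and mia stayed between 1.79 and 2.81 FPKM. Between 1 and 9 of the 19 were at 0 in a library. The 10 measured accessory gland genes summed to 2.40, 21.5 and 21.6 FPKM in the controls against 29.6, 1.41 and 2.33 under RNAi-GLAD, with 6 of 10 at 0 in RNAi-GLAD 2. The libraries with the higher testis and accessory gland sums were therefore those with the higher low-paralogue sums, and the part of those organs in these values was not tested. The 6 measured ovary and yolk genes took another order, summing to 737, 61.4 and 57.8 FPKM in the controls against 56.2, 54.9 and 65.9 under RNAi-GLAD. RNAi-Ctrl 1 thus stood apart through the yolk protein genes, with Yp3 at 343 FPKM there and 53.5 to 61.2 FPKM elsewhere and Yp1 at 296 FPKM and 0.735 to 3.28 FPKM. The 8 Malpighian tubule genes summed to 250.2 to 304 FPKM and the 7 hemocyte genes to 211 to 252 FPKM. These sums did not follow the low paralogues either, both being higher in RNAi-GLAD 2 than in RNAi-GLAD 1. The tubule sum was led by Tret1-1 (mean 148 FPKM), and not every tubule gene ran with it. Uro was at 0.287, 0.199 and 1.29 FPKM in the controls against 6.31, 0.0352 and 0.0718 under RNAi-GLAD. Oatp58Da was likewise highest in RNAi-GLAD 1, at 0.160 FPKM, and was listed at 0 in RNAi-GLAD 2 and 3.

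Vha100-4 and Vha100-5 took another order. Vha100-4, an isoform of subunit a known from the acid-secreting midgut, was at 0.147, 0.0765 and 0.0495 FPKM in the controls against 0.439, 0 and 0.0166 under RNAi-GLAD. Vha100-5 was at 0.315, 0.295 and 0.106 FPKM in the controls against 1.14, 0.0174 and 0 under RNAi-GLAD. The midgut trypsin alphaTry was at 51.4, 63.4 and 9.96 FPKM in the controls against 140.1, 0.0516 and 11.96 under RNAi-GLAD. For all 3 genes RNAi-Ctrl 3 lay under RNAi-Ctrl 1 and 2, and RNAi-GLAD 1 was highest. The 16 midgut genes summed to 239, 281 and 244 FPKM in the controls against 602, 231 and 116 under RNAi-GLAD, with 1 to 7 of the 16 at 0 in a library. The amylases, its most abundant genes by mean FPKM, ran differently: Amy-p had 64.0, 70.6 and 137 FPKM against 128, 149 and 46.3 FPKM, so that RNAi-Ctrl 3 was the highest control and RNAi-GLAD 2 the highest of all, and Amy-d had the same order of controls. Their part in the Vha100-4 and Vha100-5 values was not tested. Vha100-5 shares 18.1% of its exon bases with an antisense RNA and Vha16-2 84.5% of its own, and since the strand setting of the counting is not given, reads of either partner cannot be told apart.

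**Figure D3:**
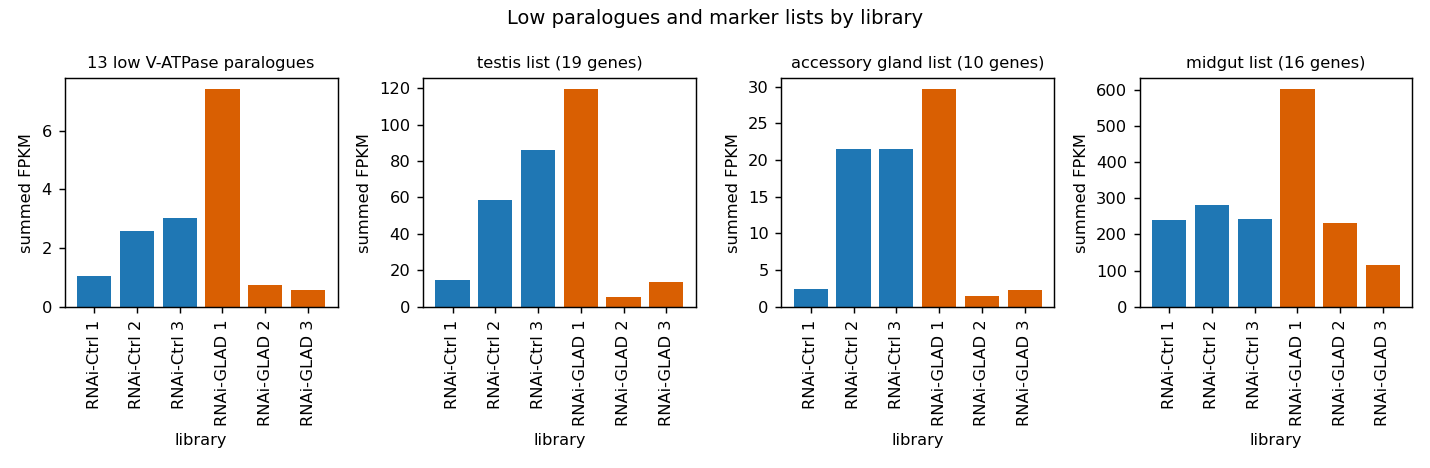
Summed FPKM per library of the 13 low V-ATPase paralogues and of the testis, accessory gland and midgut lists, blue for RNAi-Ctrl and orange for RNAi-GLAD, each panel with its own axis from 0. RNAi-GLAD 1 is highest in each panel, and RNAi-Ctrl 2 and 3 follow for the low paralogues and the testis and accessory gland lists.

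Some low paralogues lie beside an abundant gene of the same subunit. Vha68-3 begins 178 bp from Vha68-2 on 2L, on the same strand, and Vha68-2 was 229 times as high on mean FPKM. Vha100-4 lies 517 bp from Vha100-2 on 3R, which was 355 times as high, and VhaPPA1-2 lies 2052 bp from VhaPPA1-1 on 3R, which was 852 times as high. Vha16-2 and Vha16-3 lie 985 bp apart on 3L, and both were among the low genes. In 3 of these 4 pairs an abundant gene thus lay beside a low paralogue of the same subunit. The sources used here do not say how reads shared by such copies were counted.

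The group comparison asked whether expression of the GLAD construct changed V-ATPase transcripts in the head. No member passed the test. Of the 15 members with a mean of at least 1 FPKM that were tested on the log2(FPKM + 1) scale, 0 passed an adjusted p of 0.05 (limma, Benjamini-Hochberg over 9631 genes), against 0% of all genes tested. All 15 had an adjusted p of 0.999, and 0 had an unadjusted p under 0.05. The 13 low paralogues did not enter that test, and without a filter on low values 0 of the 28 passed.

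Fold changes were small and went both ways. Of the 15 genes, 9 had a positive and 6 a negative log2 fold change (RNAi-GLAD minus RNAi-Ctrl) with a median of 0.01, which was also the median of all genes tested. The split was 7 and 8 after median-of-ratios scaling and 5 and 10 after quantile scaling. The 5 members with the smallest p were VhaM9.7-a, VhaAC45, Vha36-3, Vha36-1 and VhaM9.7-c. VhaM9.7-a stood at 129 ± 5.29 FPKM in the controls against 123 ± 1.30 under RNAi-GLAD (SD, n = 3 a group), a log2 fold change of -0.06 ± 0.05 (SE). VhaAC45 stood at 139 ± 8.82 and 148 ± 9.93 FPKM (0.09 ± 0.08), and Vha36-3 at 19.5 ± 2.03 and 22.2 ± 4.34 FPKM (0.17 ± 0.15). Vha36-1 had a log2 fold change of -0.04 ± 0.08 and VhaM9.7-c of -0.03 ± 0.06. For 0 of the 15 members did the groups separate without overlap, where 4.0% of all genes tested did.

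The intervals bound what the data could have missed. The 95% confidence interval lay within 0.25 of 0 on the log2 scale for 13 of the 15 members and within 0.5 for 14, and 36.5% of all genes tested had an interval within 0.25. That share covers genes down to a mean of 1 FPKM. It was not counted for genes at the level of the members, so it does not set them apart. The exceptions were VhaAC45, with an interval from -0.10 to 0.29, and Vha36-3, with an interval from -0.20 to 0.53. For Vha100-1 it ran from -0.12 to 0.13 and for Vha55 from -0.14 to 0.19. With the libraries numbered 3 standing against their labels, these intervals hold only for the groups as labelled.

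Among the 4 libraries numbered 1 and 2, the V-ATPase genes again had no call. Since these libraries were kept after expression values were seen, the calls and p-values of this fit are descriptive. There limma called 527 of 9661 genes (5.45%, with 4.10% higher and 1.36% lower in RNAi-GLAD) and 0 of the 15 tested members, 7 of which had a positive and 8 a negative log2 fold change (median -0.00, against 0.02 for all genes tested). At the share of all genes called, fewer than 1 call among 15 genes is the background, so 0 of 15 does not set the members apart. After median-of-ratios scaling 4 were positive and 11 negative, and after quantile scaling 5 and 10. The smallest adjusted p of a member in limma was 0.261, for VhaAC45, at 145 and 129 FPKM in the 2 controls against 156 and 152 under RNAi-GLAD (0.17 ± 0.07). In the same limma fit VhaM9.7-a followed (-0.09 ± 0.04, adjusted p = 0.279), then VhaM9.7-b (0.07 ± 0.04, adjusted p = 0.380), Vha36-1 (-0.09 ± 0.06, adjusted p = 0.438) and VhaPPA1-1 (0.08 ± 0.06, adjusted p = 0.527). The groups did not overlap for 5 of the 15 members, where 56.5% of all genes tested did not. All 15 intervals lay within 0.5 of 0 on the log2 scale and 10 lay within 0.25, and the highest bound was 0.41, for Vha36-3. The number of all genes called fell to 1 without RNAi-Ctrl 1 or without RNAi-Ctrl 2, to 329 without RNAi-GLAD 1 and to 149 without RNAi-GLAD 2, and 0 members were called in each of these fits.

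**Figure D4:**
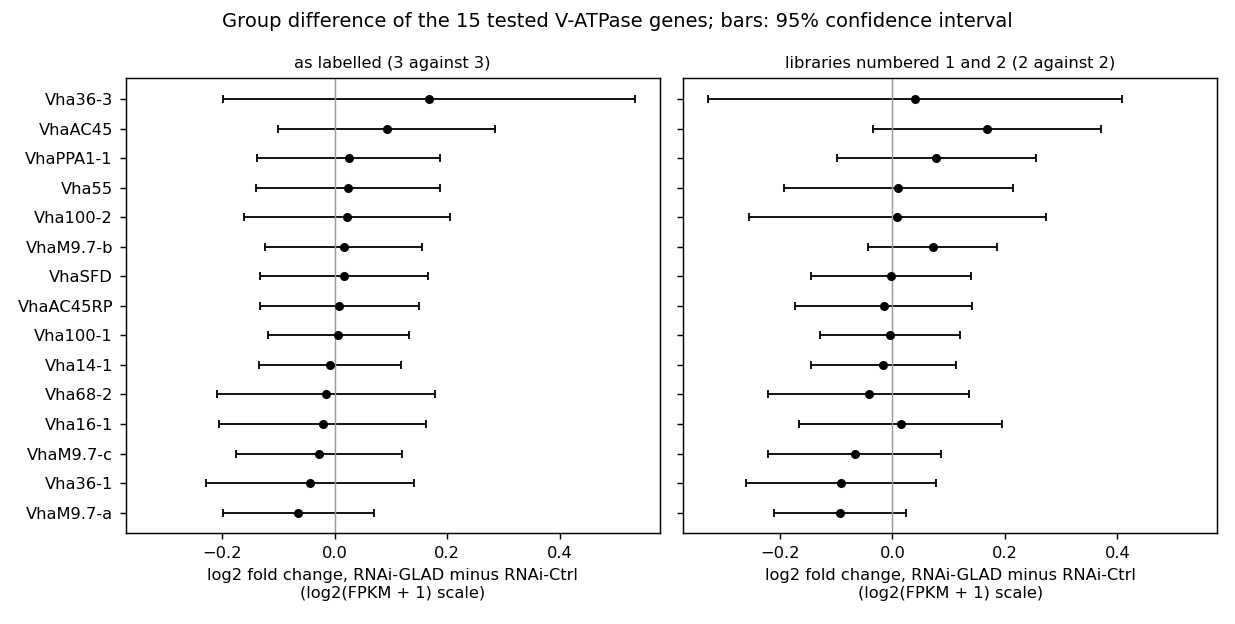
Log2 fold change of the 15 tested V-ATPase genes, positive where RNAi-GLAD is higher, from log2(FPKM + 1) values, with 95% confidence intervals, for all 6 libraries as labelled (left) and for the 4 libraries numbered 1 and 2 (right). Every interval spans 0, and Vha36-3 has the widest in both panels.

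Comparing the libraries numbered 3 with each other gave little more. The log2 difference of RNAi-GLAD 3 minus RNAi-Ctrl 3 had the opposite sign to that in the libraries numbered 1 and 2 for 11 of the 15 members. The share of all genes with an opposite sign was not counted, so this number does not set the members apart. All of these differences were small, from -0.09 to 0.06, apart from Vha36-3 at 0.42. VhaAC45, for example, differed by -0.06 between the libraries numbered 3.

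The abundant members varied less between libraries than most genes. Their coefficient of variation over the 6 libraries had a median of 4.53% (1.98% to 16.2%), beside 8.88% for all 9631 genes tested and 7.11% for the 3586 genes with means in the same range of FPKM. Part of their variation was shared within a library, though how much was not measured. In RNAi-Ctrl 1, 14 of the 15 members lay above their own mean over the 6 libraries, and in RNAi-GLAD 1 12 did, while 46.0% and 61.0% of all genes did. In the other 4 libraries 3 to 5 of the 15 members did, with 45.5% to 52.2% of all genes. The deviations of a gene from its own mean sum to 0, so counts in different libraries are not independent. The summed FPKM of the 15 genes was 1993, 1886 and 1871 in the controls against 2003, 1895 and 1863 under RNAi-GLAD, or 0.292% to 0.329% of all FPKM. The highest library of each group was thus the library numbered 1.

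**Figure D5:**
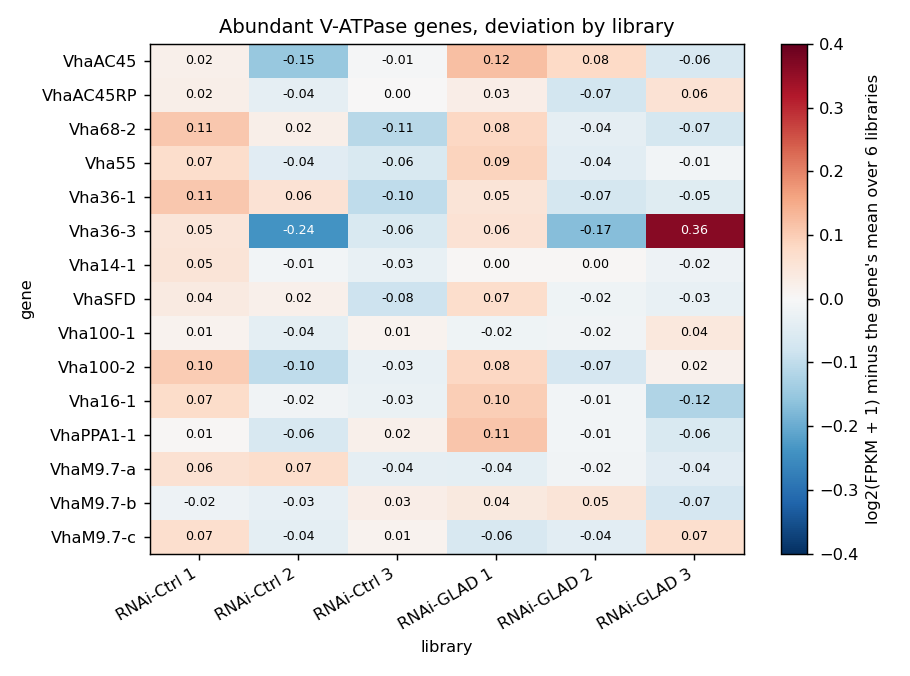
Deviation of log2(FPKM + 1) from the gene's own mean over 6 libraries, for the 15 abundant V-ATPase genes (rows) in each library (columns); red is above and blue below the mean. Most members are above their mean in RNAi-Ctrl 1 and RNAi-GLAD 1, and Vha36-3 in RNAi-GLAD 3 (0.36) departs most.

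Genes that assemble and control the pump, or work with it in lysosomes, were read from the same fits. Of 5 listed genes of assembly and control, 4 had a row and were tested. Rbcn-3A and Rbcn-3B form the complex that joins V1 to V0, mtd is a TLDc-domain protein, a family that binds the V-ATPase, and Mitf is the fly factor that activates V-ATPase and lysosomal genes. As labelled, 0 of these 4 passed, and all had negative log2 fold changes (median -0.04), with Mitf at 18.9, 19.5 and 16.5 FPKM in the controls against 16.9, 16.9 and 17.2 under RNAi-GLAD. In the libraries numbered 1 and 2, 0 passed as well (median -0.15), with Mitf at -0.17 ± 0.05 (adjusted p = 0.122), Rbcn-3A at -0.17 ± 0.08 (0.305), mtd at -0.13 ± 0.05 (0.190) and Rbcn-3B at -0.06 ± 0.05 (0.497). The 7 neuron markers also had negative log2 fold changes in both fits (medians -0.05 and -0.11), with 0 called in either, and their part in the values of this list was not tested.

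The Rag GTPases and their partners recruit the growth kinase TORC1 to the lysosome, where they work with the V-ATPase. Of 15 listed genes 14 had a row and 13 were tested. As labelled, 0 of the 13 tested genes of this list passed, 9 having positive log2 fold changes (median 0.05). In the libraries numbered 1 and 2, 2 rose, 0 fell and 11 did not pass (median 0.01), where 4.10% of all genes tested rose and 1.36% fell. RagA-B, a Rag GTPase, was at 18.0 and 17.6 FPKM in the 2 controls against 25.7 and 25.3 under RNAi-GLAD (0.49 ± 0.04, adjusted p = 0.0210). Iml1, part of the complex that switches the Rag GTPases off, was at 38.3 and 38.5 FPKM against 51.0 and 53.3 FPKM (0.43 ± 0.05, adjusted p = 0.0273). RagC-D (0.18, adjusted p = 0.106) and Nprl3 (0.20, adjusted p = 0.165) did not pass. Both calls were lost without RNAi-Ctrl 1 (adjusted p = 0.179 for RagA-B and 0.209 for Iml1), RNAi-Ctrl 2 (0.178 and 0.197) or RNAi-GLAD 2 (0.0707 and 0.0851), and without the mean-variance trend (0.0514 and 0.0620). Over the fits that left out a library the log2 fold change was 0.48 to 0.51 for RagA-B and 0.40 to 0.46 for Iml1. The call of Iml1 was also lost after median-of-ratios scaling (adjusted p = 0.0559). The libraries labelled RNAi-Ctrl 3 and RNAi-GLAD 3 were at 24.1 and 17.5 FPKM for RagA-B and at 48.1 and 40.6 FPKM for Iml1, the reverse of the other 4.

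Many lysosomal enzymes work in the acid lumen that the pump makes. They were read beside a list of lysosomal membrane proteins that also holds the soluble proteins Npc2a and Npc2b and the GTPase Arl8. Of 18 listed hydrolases 11 had a row and were tested. Of the 12 genes of the membrane list 10 had a row and 9 were tested. As labelled, 0 of these 11 hydrolases and 0 of these 9 genes passed (median -0.02 in both). In the libraries numbered 1 and 2, 1 hydrolase rose, 0 fell and 10 did not pass (median -0.06), a number near the 4.10% of all genes that rose. It was CtsL1, a cysteine protease, at 346 and 352 FPKM in the 2 controls against 432 and 453 under RNAi-GLAD (0.34 ± 0.05, adjusted p = 0.0460). Its call was lost without any of the 4 libraries (adjusted p from 0.0879 without RNAi-GLAD 1 to 0.268 without RNAi-Ctrl 1), without the filter (0.0822), without the trend (0.0830) and after median-of-ratios scaling (0.1002). Its log2 fold change was 0.31 to 0.37 without each library. The libraries labelled RNAi-Ctrl 3 and RNAi-GLAD 3 were at 398 and 368 FPKM. Hexo2 (-0.44, adjusted p = 0.131), Ppt1 (0.16, 0.240) and CtsF (-0.15, 0.253) did not pass. Of the 9 genes of the membrane list 0 passed there (median -0.02). Arl8, a GTPase of lysosome transport, was at 0.26 ± 0.04 (adjusted p = 0.0525) and the chloride transporter ClC-b at 0.27 (0.0995). Cln7 was at -0.30 (0.103) and the cholesterol transporter Npc1a at -0.14 (0.148).

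Ion transporters that share epithelial membranes with the pump, listed together with the carbonic anhydrases CAH1 and CAH2, gave no call in either fit. Of 12 listed genes 11 had a row and were tested. Of these 11 genes, 3 had positive log2 fold changes as labelled (median -0.03) and 3 in the libraries numbered 1 and 2 (median -0.09). The potassium channel Irk3 (-0.22, adjusted p = 0.0826), the chloride channel ClC-a (-0.15, 0.138) and the sodium/proton exchangers Nhe2 (-0.17, 0.184) and Nhe3 (0.12, 0.192) had the smallest p in the latter.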

How the data were processed

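Messenger RNA of 6 libraries was sequenced as paired reads of 150 bp. Per the submitters' processing notes TopHat and the builds BDGP6 and dm6 were used, while the counting tool, annotation, strand setting and handling of reads with several matches are not given in the sources used. The authors deposited FPKM values for 15886 rows, of which 15002 matched a symbol, 680 FlyBase IDs matched none and 204 lay outside the reference. Coordinates and exon lengths are from the Ensembl release 115 annotation of BDGP6. Library totals were found as those that made the most low values whole multiples of 1 fragment, and 60.9% to 63.0% of values up to 30 fragments were then whole within 0.05. The lengths or totals are thus inexact for many genes, and fragments are given only where they came out whole.

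log2(FPKM + 1) was tested with limma 3.58.1 in R 4.3.3 (mean-variance trend, genes with a mean of at least 1 FPKM, two-sided, Benjamini-Hochberg over all genes tested, threshold 0.05), without further scaling or a replicate block. The scale understates changes of low genes. The fit was tested on simulated data. Nothing says that replicates came from separate crosses, so p-values measure the spread between these libraries, which may be technical. Members, classes and lists were chosen with earlier results of these data known. Fold changes are printed for the 5 members with the smallest p in each fit, any member called and up to 4 genes per list, and those in the libraries numbered 3 and the marker genes per library were picked after their values were seen. Python 3.11.15 with matplotlib 3.10.9 drew the plots.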

Additional observations from a re-analysis of the deposited data

How the results depend on the processing

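The count of called members was 0 in every alternative run: pseudocounts of 0.1 and 0.5, no filter and a mean of at least 5 FPKM, median-of-ratios and quantile scaling, no trend, the replicate block, a threshold of 0.01, each library left out (0 to 0 members) and, as labelled, both libraries numbered 1 or 2 left out. As labelled, all genes called stayed at 0 in the same alternatives. In the libraries numbered 1 and 2 the 527 genes became 254 without a filter, 743 at a mean of at least 5 FPKM, 391 after median-of-ratios scaling, 165 without the trend, 17 at the threshold of 0.01 and 1 to 329 without each library. Quantile scaling there moved the split of higher and lower calls from 396 and 131 to 328 and 176. The mean shares of 12 paralogues moved by less than their SD without each library and without both libraries numbered 3. Leaving out so few of 6 values cannot move a mean by its SD, so this does not show that the shares are stable. Over single libraries the share of Vha100-1 ran from 70.9% to 73.9% and that of Vha36-3 from 10.8% to 16.9%. VhaM9.7-c turned from a log2 fold change of -0.03 to 0.024 when both libraries numbered 1 were left out, without a call in either. Between the RNAi-Ctrl and RNAi-GLAD library of equal number, deviations correlated at -0.354, -0.404 and -0.460 for numbers 1, 2 and 3. Since the libraries numbered 3 stood against their labels, that alone can make all of these correlations negative. The correlations therefore cannot show whether libraries of equal number were paired, and the main fits assumed no pairing. The replicate block gave 0 genes as labelled and 512 in the libraries numbered 1 and 2, with 0 members in both. For several low paralogues, such as Vha16-4, depth leaves 0 to 2 fragments behind a value.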
